A study of Arabidopsis thaliana with 35 samples.

Results

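The methyl-CpG-binding domain (MBD) gene family was followed in mature pollen of Arabidopsis thaliana (ecotype Col0) through 10 genes chosen by identifier out of 34663 nuclear and organelle gene identifiers: MBD5, MBD6, MBD1, MBD2, MBD4, MBD8, MBD9, MBD10, MBD11 and MBD13. The samples were 35 poly(A) RNA libraries of 7 genotypes with 5 replicates each. The mutants were mbd5 mbd6, which carries mutations in both genes, sln, acd15 (labelled acd15.5), acd21 (labelled acd21.4), the acd15 acd21 double mutant (acd15.5 acd21.4) and the acd15 acd21 sln triple mutant, and the reference was wild-type. Replicates 1 and 2 of every genotype were labelled batch 1 and replicates 3 to 5 batch 2. Each acd mutation is represented by a single named allele, and the labels do not describe the lesions, nor say whether both batches of mbd5 mbd6 carried the same alleles. The names of the deposited tables mark the batch 2 libraries of mbd5 mbd6, and no other genotype, with a tag (CR) that the labels do not explain, so any difference in alleles and the batch cannot be told apart within that mutant. Nothing in them states that replicates were separate plantings, and the p-values therefore reflect the spread among these libraries alone, which may be partly technical.

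MBD proteins are named for a shared methyl-CpG-binding domain. In Arabidopsis only some members, among them MBD5 and MBD6, are known to bind methylated CG. MBD5 and MBD6 act redundantly in silencing methylated genes and transposons together with SLN, a J-domain protein, and ACD15 and ACD21, which carry the alpha-crystallin domain of small heat shock proteins. The comparisons asked how much RNA of each family member pollen held, and whether the other members differed when MBD5 and MBD6 or their partners were mutated. The counts measure RNA and not the amount of MBD protein.

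Total counts were 9267958 to 22208090 per library (median 13847738). The summed level of 4 vegetative cell and pollen tube genes was 10282 to 19869 CPM (counts scaled to library size in the usual way) over the 35 libraries, and that of 4 sperm cell genes 199.9 to 257.4 CPM. The summed level of 4 leaf genes was 2.75 to 23.0 CPM (median 9.79), and the markers of pollen thus dominated every library. Along the main axis of variation within genotypes, acd15 acd21 sln replicates 2 (-36.4) and 1 (31.2) stood furthest out, on opposite sides. These values are distances from the genotype mean, so which of the 2 is unusual cannot be told. In that mutant 0 members were called with or without either. Reads in no feature averaged 0.605% in mbd5 mbd6, 0.492% in the double mutant and 0.447% in the triple mutant, against 0.762% in wild-type, and with this share as a covariate the same number of members was called in each comparison as below. In bulk pollen RNA, fewer cells of a type and less RNA per cell cannot be told apart.

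The stretches below are shown because the family holds pairs of genes of similar coding sequence, whose reads the counting had to keep apart. Each is the most alike window of 120 coding bases in its pair, read from the RefSeq sequence of assembly TAIR10.1 in the direction of transcription, and capitals mark the bases that the pair has in common at the same position. The MBD5 window lies at chr3:17149136-17149255 (plus strand) and the MBD6 window at chr5:23953293-23953412 (plus strand), with 85 of 120 bases identical. The MBD1 window lies at chr4:11947551-11947670 (minus strand) and the MBD4 window at chr3:23296149-23296268 (plus strand), with 99 of 120 bases identical. The MBD10 window lies at chr1:5276837-5276956 (minus strand) and the MBD11 window at chr3:5343715-5343834 (plus strand), with 94 of 120 bases identical.
MBD5: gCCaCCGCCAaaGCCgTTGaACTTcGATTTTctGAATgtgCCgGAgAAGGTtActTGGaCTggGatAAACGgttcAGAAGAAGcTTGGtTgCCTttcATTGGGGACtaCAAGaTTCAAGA
MBD6: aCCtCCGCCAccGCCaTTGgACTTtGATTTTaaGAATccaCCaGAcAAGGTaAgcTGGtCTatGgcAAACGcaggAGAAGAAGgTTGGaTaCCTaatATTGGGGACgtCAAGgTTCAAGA
MBD1: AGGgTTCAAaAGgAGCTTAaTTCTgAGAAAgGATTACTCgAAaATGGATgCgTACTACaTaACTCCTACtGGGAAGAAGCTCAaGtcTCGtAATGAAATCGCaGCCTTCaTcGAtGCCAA
MBD4: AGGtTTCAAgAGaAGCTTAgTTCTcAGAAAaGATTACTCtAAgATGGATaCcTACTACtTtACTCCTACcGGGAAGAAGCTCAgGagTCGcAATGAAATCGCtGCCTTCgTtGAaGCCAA
MBD10: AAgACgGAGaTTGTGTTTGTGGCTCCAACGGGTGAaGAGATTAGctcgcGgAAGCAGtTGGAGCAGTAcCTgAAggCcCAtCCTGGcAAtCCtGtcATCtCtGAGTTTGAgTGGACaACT
MBD11: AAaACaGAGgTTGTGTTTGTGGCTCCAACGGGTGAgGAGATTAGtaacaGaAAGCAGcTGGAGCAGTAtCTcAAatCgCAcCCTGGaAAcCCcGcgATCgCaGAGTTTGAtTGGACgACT
Over the whole alignment, MBD5 and MBD6 were identical at 363 of 503 aligned coding bases (72.2%), MBD1 and MBD4 at 359 of 474 (75.7%) and MBD10 and MBD11 at 505 of 704 (71.7%). The longest run of bases shared by the transcripts of a pair was 10 bases for MBD5 and MBD6, 19 bases for MBD1 and MBD4 and 25 bases for MBD10 and MBD11.

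In wild-type pollen, MBD4 and MBD2 supplied most family RNA and MBD5 almost none. Per kilobase of exon, MBD4 had 4.31 ± 0.644 CPM and MBD2 had 2.72 ± 0.232 CPM (SD, n = 5). The lowest MBD4 library (3.25 CPM per kilobase) lay above the highest MBD2 library (2.996), but per kilobase of coding sequence the pair overlapped, with 5.05 to 7.76 CPM for MBD4 and 5.09 to 6.24 CPM for MBD2. MBD6, a silencing factor of methylated DNA, had 0.748 ± 0.135 CPM per kilobase (SD, n = 5). MBD8, which has been linked to flowering time, had 0.748 ± 0.217 CPM per kilobase, a level that could not be separated from that of MBD6. Levels were lower for MBD10, which has a known role in nucleolar dominance, at 0.386 ± 0.0335 CPM per kilobase. MBD9, which works with chromatin remodelling complexes and affects flowering, had 0.263 ± 0.105 CPM per kilobase, overlapping MBD10. The last 4 genes were near the limit of these libraries, with 0.0944 CPM per kilobase for MBD1, 0.0900 for MBD5, 0.0571 for MBD11 and 0 for MBD13. Of 911 reads of the family in the 5 wild-type libraries, MBD2 took 34.0%, MBD4 27.8%, MBD9 14.2%, MBD8 10.9%, MBD6 6.04% and MBD10 5.16%, shares that are not corrected for gene length. For MBD13, 0 reads in the wild-type libraries allow a level of up to 0.0443 CPM (3 counts of their total of 67757316, counting error only).

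**Figure D1:**
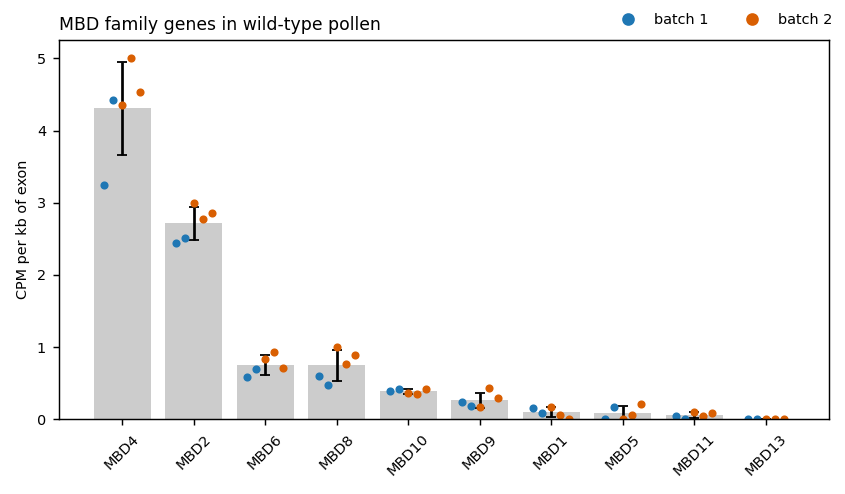
CPM per kilobase of exon for the 10 MBD genes in the 5 wild-type pollen libraries. Bars are means, error bars are SD and points are single libraries coloured by batch. MBD4 and MBD2 lie above every other member.

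In TAIR10.1 the plus strand holds MBD5 (AT3G46580, chr3:17148232-17149597), MBD6 (AT5G59380, chr5:23952132-23953707), MBD4 (AT3G63030, chr3:23295285-23296626), MBD9 (AT3G01460, chr3:173190-182454) and MBD11 (AT3G15790, chr3:5342712-5344715). The minus strand holds MBD1 (AT4G22745, chr4:11947210-11948804), MBD2 (AT5G35330, chr5:13523403-13525834), MBD8 (AT1G22310, chr1:7881503-7883824), MBD10 (AT1G15340, chr1:5275616-5277869) and MBD13 (AT5G52230, chr5:21207784-21212072). A neighbour on the opposite strand overlaps MBD2 by 104 bases, MBD4 by 55 bases and MBD9 by 59 bases. In wild-type pollen the neighbours of MBD2 and MBD9 averaged 0.238 and 0.321 CPM, against 4.63 and 1.86 CPM for the MBD genes themselves, and the neighbour of MBD4 was listed at 0. The strand setting of the counting is not given in the sources used here.

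MBD6 RNA was almost gone from mbd5 mbd6 pollen, and MBD5 was too scarce in every genotype to test. MBD6 had 0, 0, 0, 0 and 2 reads in the 5 mbd5 mbd6 libraries, against 8, 9, 11, 16 and 11 reads in wild-type (0.0221 ± 0.0493 against 0.815 ± 0.147 CPM, SD, n = 5 each). The groups did not overlap, and the only mutant library with reads was replicate 5, of batch 2. Summed over libraries, the mutant level was 0.0370 of the wild-type level (95% exact interval 0.00437 to 0.140, counting error only). The fitted log2 change was -4.41 with a standard error of 0.668 (adjusted p = 2.82e-07, edgeR quasi-likelihood test), where the adjusted p is the Benjamini-Hochberg value over all 12106 features tested and a feature is called under 0.05. In edgeR a prior count draws the log2 change toward 0. The standard error belongs to the estimate without the prior count, which was -4.76 here. The fitted size depends on replicate 5: without it all mutant libraries were at 0, and the log2 change of -6.54, still called, then depends on the fit's prior count and is no bound. In batch 1, 0 reads in mbd5 mbd6 stood against 17 in wild-type, and in batch 2, 2 reads against 38.

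MBD5 had 1, 1, 0, 0 and 1 reads in mbd5 mbd6, against 0, 2, 0, 1 and 3 reads in wild-type. These overlap fully, so the reads of MBD5 cannot check the mutation. The summed ratio of 0.509 for MBD5 had an exact interval of 0.0823 to 2.38 (counting error only). Over the other mutants the count of MBD5 per library was 0 to 4, and 23 of the 35 libraries held any MBD5 read. In those 5 mutants the summed MBD5 level was 0.687 to 1.497 of wild-type, and every exact interval held 1.

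**Figure D2:**
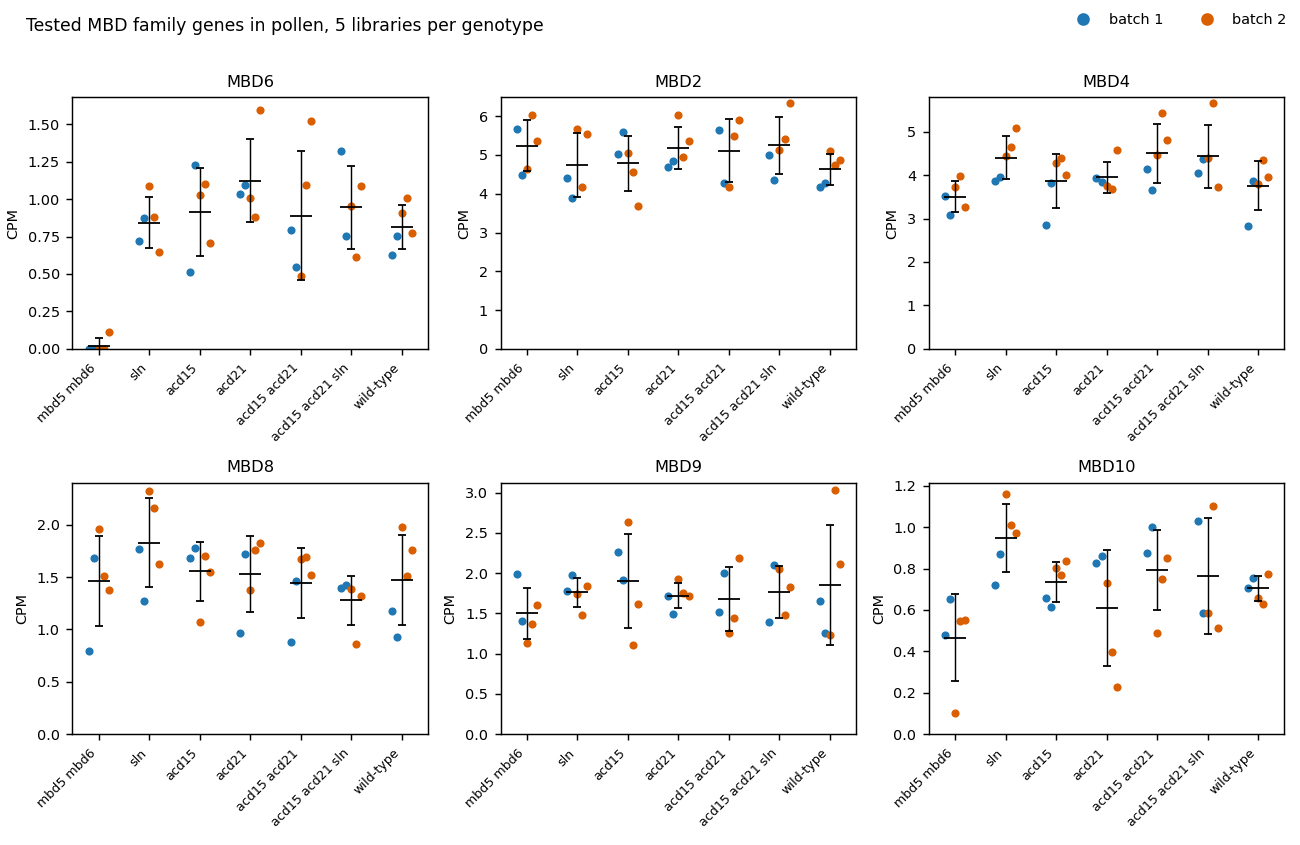
CPM of the 6 tested MBD genes, with a point per library coloured by batch, the mean as a line and SD as the error bar, 5 libraries per genotype. MBD6 in mbd5 mbd6 is the only group that does not overlap wild-type.

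No change of MBD6 RNA was called in a mutant of its partners. In CPM, sln averaged 0.842 ± 0.170, acd15 0.915 ± 0.296, acd21 1.12 ± 0.278, the double mutant 0.890 ± 0.428 and the triple mutant 0.946 ± 0.278 of MBD6, against 0.815 ± 0.147 in wild-type (SD, n = 5 each). All 5 groups overlapped wild-type. The acd21 libraries, with 1.03, 1.10, 1.01, 0.878 and 1.60 CPM of MBD6, overlapped the wild-type range of 0.629 to 1.01 CPM in 2 libraries, and the log2 change was 0.42 with a standard error of 0.292 (adjusted p = 0.587, edgeR). Over the 5 partner mutants the log2 change of MBD6 ran from -0.03 to 0.42. The 95% intervals reached 0.654-fold and 2.02-fold of wild-type, and changes of MBD6 within these bounds were not resolved.

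None of the other 5 tested members was called between mbd5 mbd6 and wild-type. In mbd5 mbd6, 1 of the 6 tested members was called, which was MBD6 itself, whereas 5.48% of all 12106 features were called and 1.41% were called lower. MBD2 had 5.66, 4.48, 4.64, 6.02 and 5.35 CPM in mbd5 mbd6, against 4.17, 4.28, 5.11, 4.73 and 4.86 CPM in wild-type. The ranges overlapped, and the log2 change of 0.19 (SE 0.125) was not called (adjusted p = 0.452, edgeR). MBD4 had 3.51, 3.08, 3.71, 3.97 and 3.25 CPM in mbd5 mbd6, against 2.83, 3.86, 3.79, 4.35 and 3.95 CPM in wild-type, with a log2 change of -0.11 (SE 0.124, adjusted p = 0.700). MBD4 also overlapped between the groups.

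Of the other members, MBD10 had the lowest log2 change in mbd5 mbd6, without a call. It had 0.479, 0.654, 0.103, 0.547 and 0.552 CPM in mbd5 mbd6, against 0.708, 0.755, 0.659, 0.631 and 0.775 CPM in wild-type. A single mutant library, replicate 2, reached into the wild-type range. The log2 change of MBD10 was -0.52 (SE 0.314, adjusted p = 0.405, edgeR), and its 95% interval ran from 0.447-fold to 1.08-fold. MBD9 had a log2 change of -0.34 (SE 0.228, adjusted p = 0.471) and MBD8 of -0.05 (SE 0.219, adjusted p = 0.943), and both overlapped wild-type. For MBD9 the interval in mbd5 mbd6 was 0.574-fold to 1.09-fold and for MBD8 0.7105-fold to 1.31-fold.

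**Figure D3:**
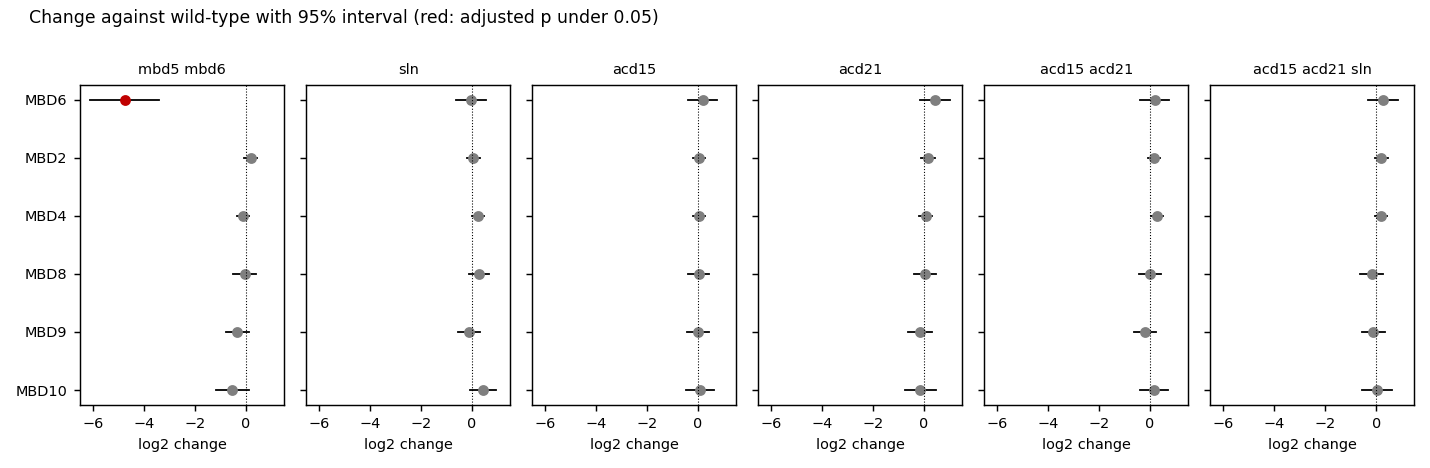
Log2 change of the 6 tested MBD genes in each mutant against wild-type, without the prior count, with 95% intervals from the edgeR fit. MBD6 in mbd5 mbd6 is called (red), the intervals of MBD4 in sln and in acd15 acd21 lie above 0 without a call, and those of all other points include 0.

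Over all 6 mutants these 5 genes gave 30 log2 changes, from -0.52 to 0.43, of which 18 were above 0 and none was called. Their 95% intervals stayed between 0.447-fold and 1.93-fold, and 2 of the 30 had an unadjusted p under 0.05. The mutants share the same 5 wild-type libraries, so these values are not independent of each other. No member was called in the 5 partner mutants, where the share of all features called was 6.31% for sln, 4.58% for acd15, 4.53% for acd21, 4.97% for the double mutant and 6.21% for the triple mutant.

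MBD4 had both of the unadjusted values under 0.05. It had 4.14, 3.65, 4.45, 5.44 and 4.81 CPM in acd15 acd21, against 2.83, 3.86, 3.79, 4.35 and 3.95 CPM in wild-type, with a log2 change of 0.27 (SE 0.113, adjusted p = 0.199, edgeR). In sln it had 3.87, 3.96, 4.43, 4.66 and 5.08 CPM and a log2 change of 0.24 (SE 0.112, adjusted p = 0.205). In each mutant 3 libraries lay above the wild-type maximum of 4.35 CPM and the others overlapped. Within batch 1 the mean of MBD4 was 3.90 CPM in acd15 acd21 and 3.92 in sln, against 3.35 in wild-type, and within batch 2 it was 4.90 and 4.72 CPM, against 4.03 in wild-type. Neither change was called in a batch alone (adjusted p from 0.375 to 0.906). Over the 6 mutants the upper bound of MBD4 was 1.42-fold.

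MBD2 was above wild-type in all 6 mutants without a call, with log2 changes of 0.04 to 0.20 and an upper bound of 1.37-fold. MBD9 had fitted changes from -0.34 to 0.00, and in acd15, where the fitted change was 0.00, its mean was 1.90 CPM, against 1.86 CPM in wild-type. MBD8 was above wild-type in 3 of 6, from -0.17 to 0.28, and MBD10 in 4 of 6, from -0.52 to 0.43. The highest MBD10 value, in sln, rested on 0.722, 0.871, 1.16, 1.01 and 0.973 CPM, against 0.631 to 0.775 CPM in wild-type, and its adjusted p was 0.324.

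Tested over the 7 genotypes together, MBD6 was the single member called (adjusted p = 1.83e-07), whereas 10.4% of all features were. MBD4 followed with an adjusted p of 0.105, MBD10 with 0.221, MBD8 with 0.649, MBD2 with 0.714 and MBD9 with 0.837. No member was called as departing from the sum of the effects of the parent mutations: 0 of 6 were called for acd15 by acd21, where 3.3% of features were, and 0 of 6 for sln by acd15 acd21, where 5.57% were. In that second term MBD4 had an unadjusted p of 0.0468 (adjusted p = 0.253, edgeR), and none of the 6 tested members had one under 0.05 for acd15 by acd21.

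Of the 6 tested members 1, MBD4, was called between batches, against 17.6% of all features (8.6% higher in batch 2). MBD4 was higher in batch 2 than in batch 1, by 0.22 on the log2 scale (SE 0.0642, adjusted p = 0.0146, edgeR), and its batch 2 mean was above its batch 1 mean in all 7 genotypes. MBD4 was not called between batches by DESeq2 or in a fit with no filter on low counts. All changes against wild-type were fitted with batch as a term.

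Summed over libraries, MBD11 had 12 to 31 reads in the mutants, against 6 in wild-type, although it was too low for the main filter (a feature needed a count near 10 in enough libraries). It had 3, 5, 2, 4 and 10 reads in mbd5 mbd6, against 1, 0, 2, 1 and 2 reads in wild-type. In CPM these were 0.239, 0.467, 0.206, 0.274 and 0.552 in mbd5 mbd6, against 0.0787, 0, 0.165, 0.0631 and 0.141 in wild-type. The groups did not overlap in CPM, but in reads they met: mbd5 mbd6 replicate 3 and wild-type replicates 3 and 5 each held 2. In sln it had 5, 2, 4, 8 and 12 reads, of which replicate 2, at 0.158 CPM, lay within the wild-type range. The summed level was 4.07 times wild-type in mbd5 mbd6 (24 against 6 reads, exact interval 1.62 to 12.2) and 4.10 times in sln (31 against 6 reads, 1.69 to 12.02), counting error only.

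The same 6 wild-type reads stood behind every MBD11 ratio. The ratio was 3.16 in acd15 (1.26 to 9.46), 2.25 in acd21 (0.780 to 7.29), 3.29 in acd15 acd21 (1.30 to 9.93) and 3.44 in acd15 acd21 sln (1.33 to 10.5). In a fit with no filter on low counts, MBD11 was called higher in sln (log2 change 1.92, SE 0.597, adjusted p = 0.0315, edgeR), where 1.93% of 35845 features were called higher. It was not called in mbd5 mbd6 (1.92, SE 0.625, adjusted p = 0.0546). Nor was it called in acd15 (adjusted p = 0.268), acd21 (0.859), acd15 acd21 (0.210) or acd15 acd21 sln (0.159). Over the 7 genotypes together MBD11 was not called in that fit (adjusted p = 0.232, edgeR). The call in sln was kept in 3 of 10 refits, added after the data were seen, that each left out 1 library (adjusted p from 0.0213 to 0.143). It was lost without wild-type replicate 1, 2, 4 or 5 and without sln replicate 1, 4 or 5. In mbd5 mbd6 MBD11 was called in 2 of 10 such refits, those without mbd5 mbd6 replicate 3 or 4 (0.0376 to 0.352). MBD11 was not called in a batch alone, for mbd5 mbd6 (adjusted p = 0.905 in batch 1 and 0.367 in batch 2) or for sln (1 in batch 1 and 0.139 in batch 2).

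**Figure D4:**
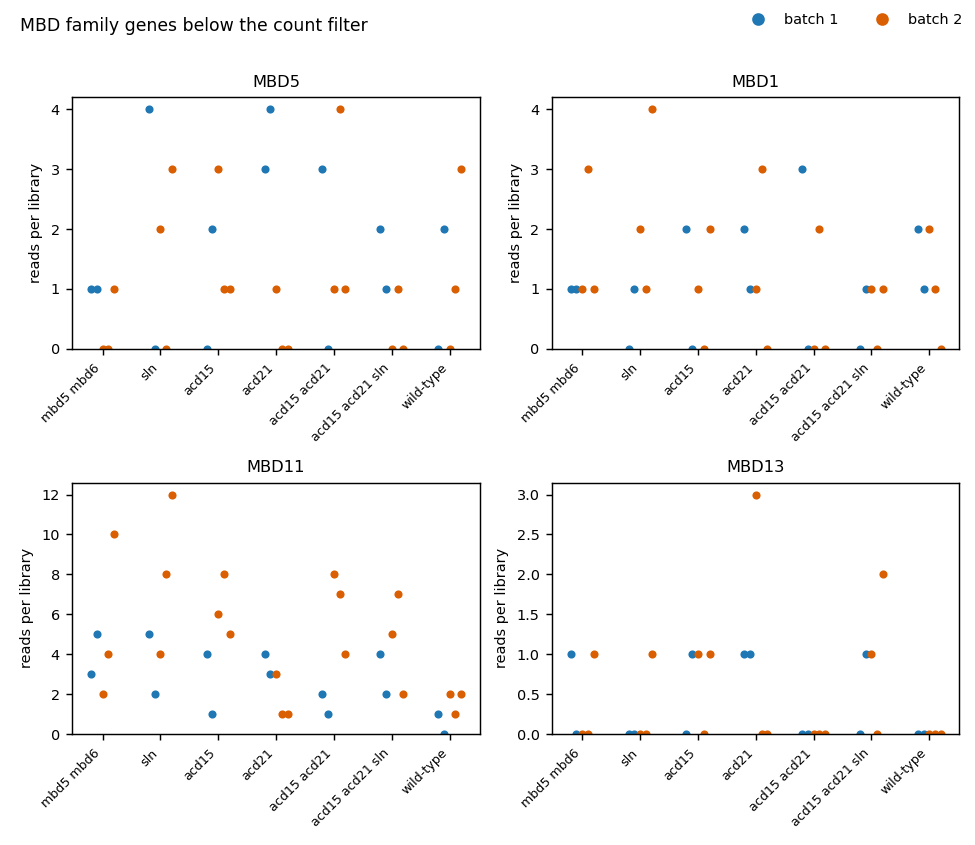
Reads per library of the 4 MBD genes below the main filter, for the 6 mutants and wild-type, with a point per library coloured by batch. MBD11 has 0 to 2 reads in wild-type and up to 12 in the mutants, and the other genes have at most 4.

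MBD1, the partner in sequence of MBD4, had 1, 1, 1, 3 and 1 reads in mbd5 mbd6, against 2, 1, 2, 1 and 0 in wild-type, a ratio of 1.19 (0.342 to 4.27). MBD13 had 1, 0, 0, 0 and 1 reads in mbd5 mbd6, against 0 in all 5 wild-type libraries. In acd21 MBD13 had 1, 1, 3, 0 and 0 reads, and with no filter on low counts its unadjusted p there was 0.0194 (adjusted p = 0.430, edgeR), without a call. In that fit its unadjusted p was 0.0434 in acd15 acd21 sln (adjusted p = 0.492) and 0.00583 for acd15 by acd21 (adjusted p = 0.256). For sln by acd15 acd21, MBD11 had an unadjusted p of 0.0142 (adjusted p = 0.284). None of these was called.

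Summed over the family, the other 8 members without MBD5 and MBD6 had 12.7 ± 0.842 CPM in mbd5 mbd6, against 12.6 ± 1.57 CPM in wild-type (SD, n = 5 each). The highest sums were those of sln (14.1 ± 1.61 CPM) and of the triple mutant (13.9 ± 0.898 CPM), and these overlapped wild-type. Over all 10 members the sum was 12.7 ± 0.835 CPM in mbd5 mbd6 and 13.5 ± 1.71 CPM in wild-type. MBD2 and MBD4 dominate these sums, so they say little of the smaller members.

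Of the 30 other genes of the pathway listed, 15 were tested, and 1 was called in each of sln, acd15 and acd15 acd21 sln and 0 in the other mutants, against the 4.53% to 6.31% of all features called in these comparisons. SLN was lower in sln (log2 change -4.00, SE 0.228, adjusted p = 5.97e-19) and in acd15 acd21 sln (-4.23, SE 0.257, adjusted p = 3.17e-18). ACD15 had at most 1 read and ACD21 at most 3 reads in any library, so neither could be tested. Apart from SLN the only call was SUVH5, a histone methyltransferase that binds methylated DNA through its SRA domain. SUVH5 averaged 16.4 ± 0.871 CPM in acd15, against 13.3 ± 1.01 CPM in wild-type (log2 change 0.29, SE 0.0665, adjusted p = 0.00221), without overlap, and was not called in either batch alone.

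Among 12 readers with an SRA domain, the other class of proteins that recognise methylated DNA, 8 were tested and their median log2 change was 0.07 to 0.12 over the 6 mutants, against -0.00295 to 0.0125 for all features. For single features the median absolute log2 change was 0.102 to 0.125. That measure ignores sign, so it cannot say how usual such a median over 8 genes is. The 6 mutants share the same wild-type libraries, and the readers were not tested as a set. None of the 5 tested remodelling partners of MBD9, out of 8, was called in any mutant. None of the 4 MBD genes outside the 10 was tested: MBD7 had 0 to 10 reads and MBD4L 2 to 15 reads per library, and MBD3 and MBD12 had 0 in all 35 libraries, which allows up to 0.00608 CPM. MBD7 works with IDM1, IDM2 and IDM3 in limiting DNA methylation, and of these IDM3 alone was tested, with no call.

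The features most like MBD6 over the 7 genotype means (Pearson r of batch-adjusted log2 CPM, n = 7, a description only) were VLN5 (AT5G57320), a villin that bundles actin in pollen tubes, with r = 0.979, AT5G11560 with r = 0.970, and AT3G49450, annotated as an F-box protein, with r = 0.970. MBD6 was far lower in mbd5 mbd6 than in any other genotype, so r rests mostly on the mean of that mutant. Features chosen by r therefore tend to be low there, and their changes in mbd5 mbd6 are no separate evidence. AT3G49450 was itself lower in mbd5 mbd6 (log2 change -0.56, adjusted p = 5.31e-10, edgeR). VLN5 (-0.09, adjusted p = 0.422) and AT5G11560 (-0.42, adjusted p = 0.377) were not called there.

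Some marker genes moved with genotype. The sperm marker DMP9 averaged 83.4 CPM in mbd5 mbd6, 83.6 in sln and 81.7 in acd15 acd21, against 72.6 CPM in wild-type, and was called higher in these 3 mutants (log2 changes 0.20, 0.20 and 0.17). Of the 4 sperm markers tested no other was called in them, and the means of HAP2 and DUO1 lay on both sides of wild-type. In acd15 acd21 sln, HTR10 was called higher (0.19) and HAP2 lower (-0.20), and no vegetative or leaf marker was called in a mutant. Summed leaf markers were 3.97 to 22.0 CPM in mbd5 mbd6 (median 10.1), 7.76 to 19.8 CPM in sln (median 16.9), 8.29 to 17.2 CPM in acd15 (median 14.4), 7.34 to 14.4 CPM in acd21 (median 9.79), 6.05 to 15.5 CPM in the double mutant (median 7.58) and 5.95 to 13.3 CPM in the triple mutant (median 9.79), against 2.75 to 23.0 CPM in wild-type (median 8.73). Their part in the values above, among them those of MBD4, MBD10 and MBD11 in sln and of SUVH5 in acd15, was not tested. Between the wild-type libraries with the most leaf marker RNA (replicate 2, 23.0 CPM) and the least (replicate 5, 2.75 CPM), MBD9 had 1.26 and 2.11 CPM, MBD2 4.28 and 4.86 CPM, MBD4 3.86 and 3.95 CPM, and MBD6 0.755 and 0.775 CPM. These are single libraries, replicate 2 of batch 1 and replicate 5 of batch 2. Leaf marker RNA and batch therefore cannot be told apart in them.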

How the data were processed

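For each library the authors deposited raw counts of reads per feature, which were not altered. The submitters' processing notes name Trim Galore, STAR, HTSeq, deepTools and the build TAIR10; versions and settings, strand included, were not given in the sources used here. Per the labels' protocols, RNA was prepared with a stranded mRNA kit. Rows that name no gene stayed out of library sizes: reads in no feature were 0.217 to 0.999% and ambiguous reads 0.108 to 0.135%. No 2 libraries of a genotype agreed within sampling noise (chi-square per degree of freedom 2.70 to 26.4 over 70 pairs).

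Differences were tested with edgeR 4.0.16 (R 4.3.3, robust quasi-likelihood test, TMM scaling) in 1 fit of 35 libraries with terms for genotype and batch. Features passed filterByExpr (minimum count 10, minimum total 15) and were called under 0.05 after Benjamini-Hochberg adjustment over the 12106 tested. Of the members 6 passed. CPM used TMM-scaled library sizes and errors are SD, or standard errors for log2 changes. Standard errors and 95% intervals of the edgeR fit belong to log2 changes without its prior count. The edgeR log2 changes printed include the prior count. Ratios of members below the filter are summed counts with exact 95% intervals, which like the 3-count floor cover counting error only. The code was tested on simulated data. Alternatives were DESeq2 1.42.0, other scaling, filters, batch terms and left-out libraries. Gene models and sequences came from RefSeq (TAIR10.1), with lengths over exons. All members were named, with pathway genes that were called, SLN, ACD15, ACD21 and the 3 features most like a member called over the genotypes. Members and lists were chosen with earlier results of these data known. The sperm marker GEX2 was not analysed here.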

Additional observations from a re-analysis of the deposited data

Results flagged for a closer look

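In 42 groups of 5 libraries (6 tested members by 7 genotypes), 4 groups had 1 library whose gap to the next took up most of the range of all 5 (Dixon's test). For normally spread values chance gives about 1 in 20. That rate does not hold for MBD6 in mbd5 mbd6, where any 1 library above 0 is flagged when the others are at 0. MBD6 in mbd5 mbd6 replicate 5 was at 0.110 CPM (2 reads), and the other 4 libraries were at 0. MBD4 in acd21 replicate 5 was at 4.57 CPM, and the others were at 3.67 to 3.92 CPM. MBD8 in acd15 acd21 replicate 1 was at 0.876 CPM (11 reads), and the others were at 1.46 to 1.70 CPM. MBD8 in acd15 acd21 sln replicate 4 was at 0.860 CPM (7 reads), and the others were at 1.32 to 1.43 CPM.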

How the results depend on the processing

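MBD6 in mbd5 mbd6 kept its direction and its call under every setting in which it was tested, with log2 changes from -6.54 to -4.10 (adjusted p from 5.87e-07 to 4.10e-06) when each library was left out, -4.69 with DESeq2 (adjusted p = 2.56e-05), -6.17 in batch 1 alone (adjusted p = 0.0188) and -4.04 in batch 2 alone (adjusted p = 0.000190). In batch 1 alone, and without replicate 5, mbd5 mbd6 held 0 MBD6 reads. The sizes of -6.17 and -6.54 therefore depend on the prior count, and -6.17 against -4.04 is no measured difference between batches. Fitting only the groups compared gave 0 members called in mbd5 mbd6, because MBD6 did not pass that filter, and 1 pathway gene. The other 35 changes of tested members had 697 values under the alternatives: 0 were called, and 57 had the other sign without a call. Without a filter, the members called were 1 in sln (MBD11) and 0 between batches, and pathway genes were 2 in sln and 1 in acd15 acd21. With minimum count 3, chosen after the data were seen, members called were 2 in mbd5 mbd6 and 1 in sln. The added member is MBD11, which passes that filter through the groups in which it is high, so these counts are no test of it. DESeq2 gave 0 members between batches. In batch 1 alone and in batch 2 alone the pathway genes called in acd15 were 0, so the SUVH5 call was absent in each. Leaving out libraries gave 1 to 2 pathway genes in sln, 0 to 1 in acd15 acd21 and 0 to 1 in mbd5 mbd6, and 1 to 2 members over the 7 genotypes (MBD4, adjusted p = 0.0494, without acd15 acd21 sln replicate 5). The causes of these differences were not tested.

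The labels do not say whether replicate numbers pair the samples. Residual correlations of libraries with the same number were -0.493 to 0.497 in batch 1 and -0.133 to 0.308 in batch 2. They were over 0.1 in 10 of 42 pairs in batch 1 and 18 of 63 in batch 2. With 2 libraries per genotype in batch 1, the residuals of each genotype mirror each other, so these values cannot exclude a pairing. With the replicate block in place of batch, MBD6 in mbd5 mbd6 was -4.42 (adjusted p = 5.15e-07), and pathway genes called were 1 in mbd5 mbd6, 2 in sln and 1 in acd15 acd21. Per kilobase of coding sequence, wild-type levels were 6.70 CPM for MBD4, 5.65 for MBD2, 1.20 for MBD6, 0.934 for MBD8 and 0.611 for MBD10. They were 0.284 for MBD9, 0.161 for MBD5, 0.153 for MBD1 and 0.117 for MBD11. MBD6 (0.928 to 1.49) and MBD8 (0.586 to 1.26) still overlapped, and MBD5 and MBD1 changed order against the values per kilobase of exon. Depth limits MBD5, MBD1, MBD11 and MBD13, with at most 12 reads in a library.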
